A study of Mus musculus with 4 samples.

Results

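The serotonin receptors of mouse prefrontal cortex were followed through an Affymetrix MOE430 2.0 array experiment, on which groups of short oligonucleotides, called probe sets, are designed against transcripts and a gene can have several. The members were taken by gene symbol from a list of 10 receptor genes, keeping each probe set that the platform annotation gives exactly 1 symbol. This found 18 probe sets for 9 genes (Htr1a, Htr1b, Htr1d, Htr1f, Htr2c, Htr3a, Htr4, Htr5a and Htr7), out of 45037 probe sets and 18193 genes. Htr2a was not analysed here. Each of the 4 arrays held prefrontal cortex RNA pooled from 5 mice. There were 2 pools of mice under repeated social threat, labelled HighThreat, and 2 pools of control mice, labelled LowThreat. The sources used here do not give the strain, age or sex of the mice, or how the social threat was applied. Since a pool averages its animals, its values say nothing of how single mice varied, and the labels leave unsaid whether the pools of a group came from separate experiments.

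Serotonin reaches prefrontal cortex through axons of neurons whose cell bodies lie in the raphe nuclei of the brainstem. It acts there on a family of receptors that, with the exception of the Htr3 ion channels, couple to G proteins. The Htr1 and Htr5 receptors act through inhibitory Gi/o proteins, the Htr2 receptors through Gq and phospholipase C, and Htr4, Htr6 and Htr7 through Gs and cyclic AMP. In cortex these receptors tune the excitability of pyramidal cells and interneurons, and they have been studied widely in stress and anxiety.

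Marker genes were set against a background. All 7 markers of neurons in general and all 5 measured markers of excitatory cortical neurons lay above the background, taken as the highest value of the 27 Bacillus control probe sets on any array, 4.25 on the log2 scale. Of 5 measured markers of serotonin neurons, 3 lay above it. By their brightest probe sets 15051 of all 18193 genes lay above it. So did all 8 measured markers of striatal neurons and all 9 of oligodendrocytes. Passing this threshold thus cannot tell prefrontal cortex from other brain tissue. Tph2, the brain enzyme that starts serotonin synthesis and defines these cells, lay between 3.29 and 3.39 on the 4 arrays, inside the Bacillus range of 3.01 to 4.25. Array medians ran from 5.53 to 5.58, and correlations between arrays from 0.9942 to 0.9961. The log2 signal ratio of the 3′ over the 5′ control probe sets of Actb, a sign of RNA integrity, was 0.59 and 0.50 in control pools 1 and 2 and 0.66 and 0.53 in threat pools 1 and 2.

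All 9 receptor genes, against 15051 of all 18193 genes, had a probe set whose mean over the 4 arrays lay above the Bacillus controls. Of the 18 probe sets 16 did so, and 14 lay above them on every array, against 70.2% and 66.6% of all probe sets. The 2 exceptions were 1440166_x_at of Htr1d, with a mean of 4.15, and 1422235_at of Htr7, with a mean of 4.01. Both genes had another probe set above the threshold. The 2 probe sets with a mean above the threshold but not on every array were 1440741_at of Htr1d and 1422207_at of Htr5a. Probes differ in how strongly they bind, so the level of one probe set was not compared with that of another.

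**Figure D1:**
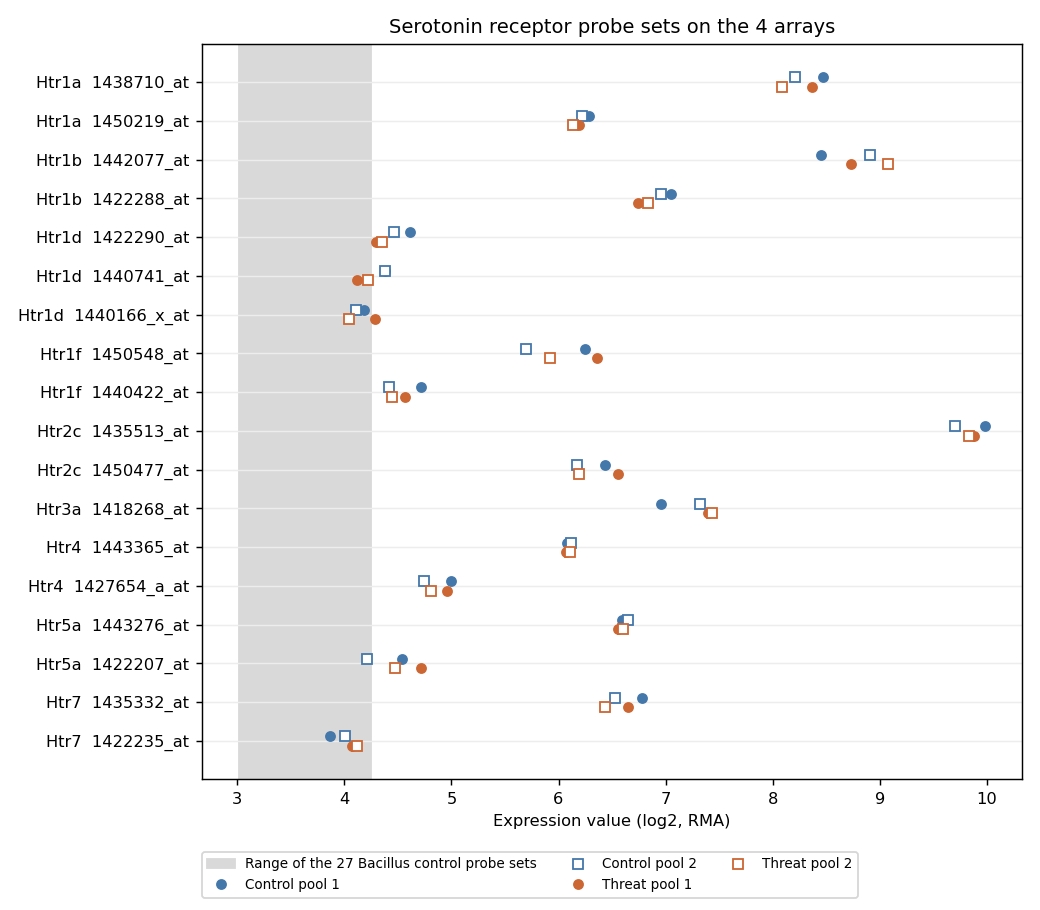
Log2 expression value (horizontal axis) of the 18 serotonin receptor probe sets on the 4 arrays, 1 symbol for each pool of 5 mice, with the Bacillus control range of 3.01 to 4.25 shaded. The probe set 1422235_at of Htr7 lies inside the shaded range on every array, while 14 probe sets lie above it on every array. Positions of different probe sets are not comparable as levels.

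Between threat and control, no serotonin receptor passed the test. In limma's test, with Benjamini-Hochberg adjustment over all 45037 probe sets, 0 of the 18 had an adjusted p under 0.05, and 0 had an unadjusted p under 0.05. The background was 0% and 10.6% of all probe sets. Adjusted p-values of the receptors ran from 0.492 to 0.984, and the smallest over the whole array was 0.278. The largest receptor difference was 0.27 on the log2 scale, or 1.21-fold, that of Htr3a, and 0 of the 18 reached 1.5-fold with pools that did not overlap, against 0.83% of all probe sets. With threat higher, 2 receptor probe sets had groups that did not overlap, and with threat lower 4, against 23.9% and 19.4% of all probe sets. The differences were spread evenly around 0, 9 above and 9 below, with a median of 0.00095 against 0.015 over all probe sets.

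The 95% intervals of the differences show what the fit to 2 pools a group can exclude. Their width rests on the pools of a probe set and on the variances of all probe sets, which limma combines. The narrowest was that of 1443365_at of Htr4, which reached 1.17-fold at most. The widest was that of 1450548_at of Htr1f, which reached 1.67-fold, so changes of that size are not excluded for this probe set. For 13 of the 18 probe sets (72.2%) the difference between groups was smaller than the larger of the differences between pools of 1 group, against 68.7% of all probe sets. In 10 of the 18 the sign of the difference turned when 1 of the 4 pools was left out, against 43.0% of all probe sets. In bulk tissue, fewer cells that carry a receptor and less receptor RNA per cell cannot be told apart.

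**Figure D2:**
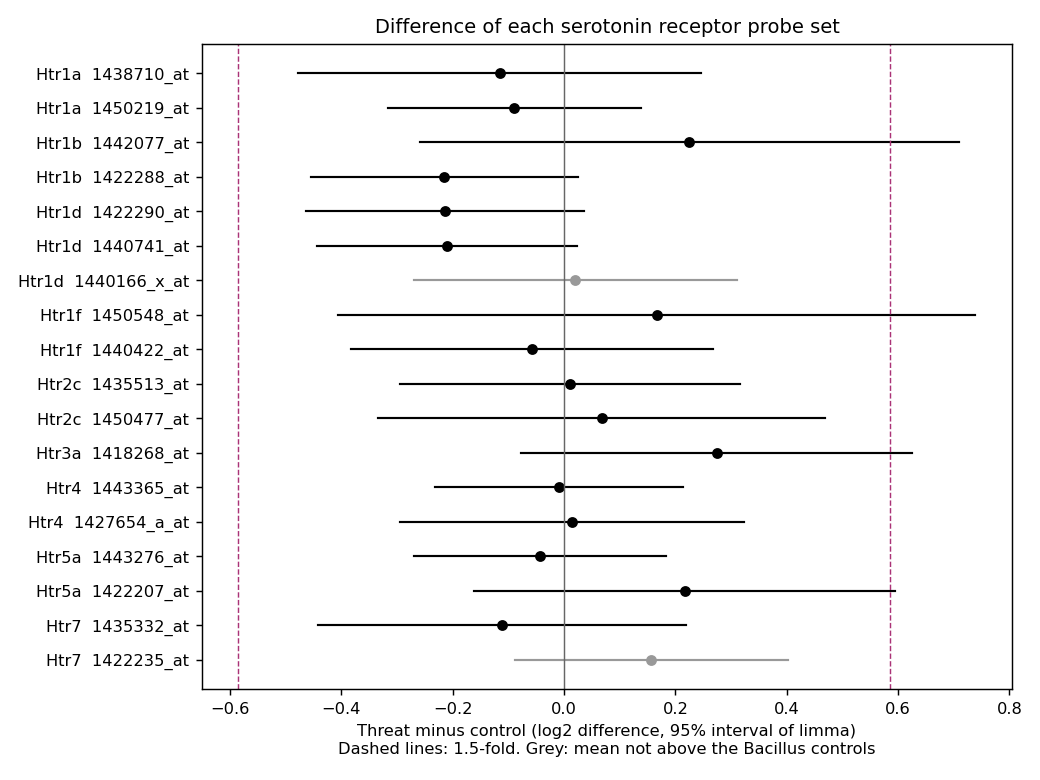
Log2 difference of threat minus control (points) with the 95% interval of limma (bars) for the 18 serotonin receptor probe sets, 2 pools a group, with dashed lines at 1.5-fold. Every interval includes 0, and probe sets whose mean was not above the Bacillus controls are grey.

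Htr1a is the inhibitory receptor that serotonin neurons carry as an autoreceptor and that pyramidal cells and interneurons of prefrontal cortex carry as well. Its probe set 1438710_at measured 8.47 and 8.21 in control pools 1 and 2 and 8.36 and 8.08 in threat pools 1 and 2. The groups overlapped, and pool 1 was the higher of each group. The difference was -0.12 ± 0.14 (SE, 95% interval -0.48 to 0.25, n = 2 pools each, limma adjusted p = 0.784). The probe set 1450219_at measured 6.29 and 6.22 in control and 6.19 and 6.14 in threat. Both threat pools lay below both control pools here, by a difference of -0.089 ± 0.091 (95% interval -0.32 to 0.14, limma adjusted p = 0.730). The first of these turned to 0.016 without control pool 1 and to 0.023 without threat pool 2, while the second stayed between -0.12 and -0.054 when each pool was left out.

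Htr1b sits on axon terminals, where it restrains release of serotonin and of other transmitters. Its 2 probe sets differed in opposite directions. The probe set 1442077_at measured 8.45 and 8.91 in control and 8.73 and 9.08 in threat. The groups overlapped, with control pool 1 the lowest of the 4 and threat pool 2 the highest, and the difference was 0.23 ± 0.19 (95% interval -0.26 to 0.71, limma adjusted p = 0.679). Without control pool 1 it was -0.0049, and without control pool 2 it was 0.46. The probe set 1422288_at, which the annotation ties to a RefSeq mRNA, measured 7.05 and 6.96 in control and 6.74 and 6.84 in threat. Both threat pools were the lower ones, by a difference of -0.21 ± 0.096 (95% interval -0.45 to 0.025, unadjusted p = 0.0703, limma adjusted p = 0.493), and it stayed between -0.26 and -0.17 when each pool was left out. Within an array, the log2 value of 1442077_at over that of 1422288_at was 1.40 and 1.95 in control and 1.99 and 2.24 in threat. This ratio was lowest in control pool 1, and control pool 2 and threat pool 1 were close to each other. Whether the 2 probe sets differ in their response was not tested, and the mean of both gave a difference of 0.0051 ± 0.12.

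Htr1d, a close relative of Htr1b on nerve terminals, had 3 probe sets, each near the Bacillus controls. The probe set 1422290_at measured 4.61 and 4.46 in control and 4.30 and 4.35 in threat, a difference of -0.21 ± 0.10 (95% interval -0.46 to 0.036, limma adjusted p = 0.502). Both threat pools were lower, and the higher of them was 0.10 above the highest Bacillus value. The probe set 1440741_at measured 4.38 in both control pools and 4.11 and 4.22 in threat. Both threat pools lay under the highest Bacillus value, so no fold is given. The measured difference was -0.21 ± 0.093 (95% interval -0.44 to 0.023, limma adjusted p = 0.492). The third, 1440166_x_at, measured 4.18 and 4.10 in control and 4.28 and 4.04 in threat, with 1 of the 4 values above the highest Bacillus value. It gave a difference of 0.020 ± 0.12, and its groups overlapped.

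Htr1f is an inhibitory receptor of the same family. Its probe set 1450548_at measured 6.24 and 5.70 in control and 6.36 and 5.92 in threat. Pool 1 was the higher in both groups, and the 0.55 between the control pools and the 0.44 between the threat pools both exceeded the difference between groups of 0.17 ± 0.23 (limma adjusted p = 0.805). The probe set 1440422_at measured 4.71 and 4.41 in control and 4.56 and 4.45 in threat, with overlapping groups and a difference of -0.058 ± 0.13. Left-out pools turned the sign of both: the first was -0.11 without control pool 2, and the second 0.092 without control pool 1.

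Htr5a, an inhibitory receptor found mostly in brain, measured 6.59 and 6.65 in control and 6.55 and 6.60 in threat by its probe set 1443276_at. The 4 pools spanned 0.10, and the difference was -0.044 ± 0.091 (95% interval -0.27 to 0.18, limma adjusted p = 0.879). Its other probe set, 1422207_at, measured 4.54 and 4.21 in control and 4.71 and 4.47 in threat. Control pool 2 was there under the highest Bacillus value, the groups overlapped, and the difference was 0.22 ± 0.15 (95% interval -0.16 to 0.59, limma adjusted p = 0.613). Without control pool 2 it was 0.051.

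Htr2c is the Gq-coupled receptor whose RNA is edited by adenosine deaminases, and it is made in cortical neurons and in very large amounts by the epithelium of the choroid plexus. The probe set 1435513_at measured 9.98 and 9.70 in control and 9.88 and 9.83 in threat, with both threat pools between the control pools. The difference was 0.011 ± 0.12 (95% interval -0.29 to 0.32, limma adjusted p = 0.984), and it was -0.040 after cyclic loess normalisation. The probe set 1450477_at measured 6.43 and 6.17 in control and 6.55 and 6.19 in threat, again with pool 1 the higher of each group, and gave 0.068 ± 0.16 (limma adjusted p = 0.896). Choroid plexus markers were set beside it. Ttr, transthyretin, measured 9.05 and 6.48 in control and 6.15 and 6.18 in threat. Clic6 measured 5.97 and 5.57 in control and 5.15 and 5.28 in threat. Kcnj13 measured 6.69 and 7.63 in control and 6.23 and 7.55 in threat, with pool 2 the higher of each group. The mean log2 value over the 10 measured markers of this epithelium was 5.26 and 5.00 in control and 4.80 and 4.91 in threat. Of these 10, 4 had differences above 0 and 6 below, with a median of -0.066, where 55.7% of all genes lay above 0. The 4 markers at or below the Bacillus controls were Aqp1, Otx2, Kcne2 and Slc4a5, and 3 of the 10, of which Otx2 was one, had threat pools below both control pools, against 18.8% of all genes. The part of choroid plexus RNA in the Htr2c values was not tested.

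Htr3a encodes the subunit that every Htr3 channel needs, a cation channel opened by serotonin, and it marks a class of cortical interneurons. Its probe set 1418268_at measured 6.96 and 7.33 in control and 7.40 and 7.43 in threat. Both threat pools were above both control pools, but control pool 2 was closer to the threat pools than to control pool 1. The difference was 0.27 ± 0.14 (95% interval -0.077 to 0.63, unadjusted p = 0.103, limma adjusted p = 0.520), or 1.21-fold. It was 0.092 without control pool 1 and 0.46 without control pool 2, where the unadjusted p in limma was 0.0153 and the adjusted p 0.555. Over the alternatives run for this probe set, the adjusted p ran from 0.394 to 0.817.

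Markers of interneurons of the Htr3a class were set beside it. Of 10 measured, 6 lay above 0 and 4 below, where 55.7% of all genes lay above 0. Their median was 0.024, equal to that of all genes at this rounding. Their mean log2 value was 9.19 and 9.31 in control and 9.26 and 9.28 in threat. All 10 lay above the Bacillus controls. Adarb2 measured 5.95 and 6.41 in control and 6.65 and 6.80 in threat, a difference of 0.54 ± 0.17 (limma adjusted p = 0.439) that was 0.31 without control pool 1. Reln, the secreted protein reelin, measured 9.54 and 10.24 in control and 10.19 and 10.31 in threat, a difference of 0.36 ± 0.23 that was 0.015 without control pool 1. Crh, the stress peptide corticotropin-releasing hormone, which a part of these interneurons makes, measured 7.69 and 7.60 in control and 7.15 and 7.30 in threat, a difference of -0.42 ± 0.10 (limma adjusted p = 0.427). Control pool 1 was the lowest array in Htr3a and in the markers Adarb2, Reln, Vip, Cck and Lamp5. It was the highest array in the markers Crh, Ndnf, Npy and Prox1. The part of interneuron number in the Htr3a values was not tested.

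Htr4 and Htr7 both raise cyclic AMP. Htr4 measured 6.08 and 6.12 in control and 6.07 and 6.11 in threat by its probe set 1443365_at, with the 4 pools spanning 0.047. The difference was -0.0092 ± 0.089 (95% interval -0.23 to 0.21, limma adjusted p = 0.980), and 0.027 when each array was centred on its median. By 1427654_a_at it measured 5.00 and 4.74 in control and 4.95 and 4.81 in threat, a difference of 0.014 ± 0.12, with the threat pools between the control pools. Htr7 measured 6.78 and 6.53 in control and 6.65 and 6.43 in threat by its probe set 1435332_at. Pool 1 was the higher in both groups, the groups overlapped, and the difference was -0.11 ± 0.13 (95% interval -0.44 to 0.22, limma adjusted p = 0.772). The other probe set of Htr7, 1422235_at, lay at 3.87 and 4.01 in control and 4.07 and 4.12 in threat, under the highest Bacillus value on all 4 arrays, so that no fold is given although both threat pools were the higher ones (limma adjusted p = 0.577).

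**Figure D3:**
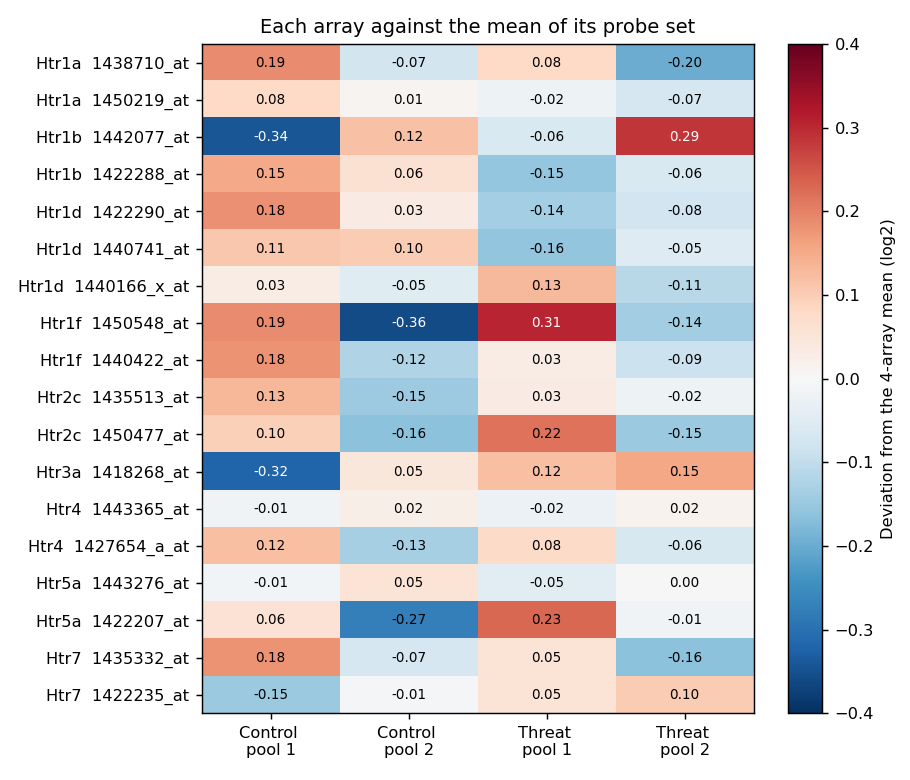
Deviation of each array from the mean of the 4 arrays (colour and printed value, log2) for the 18 serotonin receptor probe sets. Control pool 1 is the lowest array for Htr3a and for 1442077_at of Htr1b, and control pool 2 is the lowest for 1450548_at of Htr1f.

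Of 8 receptor genes with more than 1 probe set, Htr1a and Htr2c had probe sets whose differences all shared a sign, that of Htr2c not after cyclic loess. Over the 7 pairings of a gene's brightest probe set with another of the same gene in which both lay above the Bacillus controls, 4 had opposite signs. Where a gene's probe sets above the Bacillus controls were averaged, the differences of the 9 genes lay between -0.21 (Htr1d) and 0.27 (Htr3a), and 0 of 9 passed in limma's test at an adjusted p under 0.05 or at an unadjusted p under 0.05.

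The 4 serotonin receptors outside the list lay at or near the Bacillus controls. Htr6, a Gs-coupled receptor, measured 4.34 and 4.27 in control and 4.46 and 4.36 in threat, a difference of 0.10 ± 0.094 (limma adjusted p = 0.692), and was the only one of the 4 whose mean was above the highest Bacillus value. Htr5b measured 4.49 and 4.06 in control and 3.79 and 4.05 in threat, with 1 of the 4 values above that threshold. Htr2b ranged from 4.04 to 4.42 and Htr3b, the partner subunit of Htr3a, from 3.71 to 3.75.

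Genes of serotonin synthesis, transport and breakdown were measured for 8 of 10 listed. By their brightest probe sets all 8 had differences below 0, where 8061 of all 18193 genes did. Their median was -0.099 against 0.024 over all genes. Tph1 and Tph2, 2 of the 8, were not above the Bacillus controls. Below 0 were 6 of the 8 without control pool 1, where Maoa was at 0.046 and Maob at 0.088, and 7 without threat pool 2, where Maoa was at 0.019. The median was -0.17 without control pool 2. With all pools, 4 had both threat pools below both control pools, against 18.8% of all genes. None of the 8 passed limma's test at an adjusted p under 0.05, and 1 did at an unadjusted p under 0.05, against 5.76% of all genes in that direction. That gene was Ddc, the decarboxylase that makes serotonin as well as dopamine, at 6.66 and 5.85 in control and 5.41 and 5.66 in threat. Its difference of -0.72 ± 0.27 (95% interval -1.40 to -0.044, limma adjusted p = 0.461) was -0.31 without control pool 1, the highest of the 4 arrays, and its other probe set lay under the Bacillus controls on every array.

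Slc6a4, the serotonin transporter, measured 4.88 and 4.85 in control and 4.68 and 4.62 in threat, a difference of -0.22 ± 0.090 (95% interval -0.44 to 0.0096, limma adjusted p = 0.478), with both threat pools lower. Slc29a4, a low-affinity monoamine transporter, differed by -0.12 ± 0.095 by 1441902_x_at and by 0.13 ± 0.11 by 1424900_at, and Slc18a2, the vesicular monoamine transporter, by -0.11 ± 0.11. The monoamine oxidases Maoa and Maob, which break serotonin down, differed by -0.079 ± 0.13 and -0.054 ± 0.12 by their brightest probe sets. The second probe set of Maoa, 1442676_at, went the other way, at 7.42 and 7.22 in control and 7.73 and 7.62 in threat. Its difference was 0.36 ± 0.11 (limma unadjusted p = 0.0198, adjusted p = 0.439), and it is not in the count over brightest probe sets. Tph1 and Tph2, the enzymes that start serotonin synthesis, were not above the Bacillus controls on any array.

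Of 26 measured G proteins and effectors of the receptors, 19 lay above 0 and 7 below, where 55.7% of all genes lay above 0. Their median of 0.044 was 0.081 without threat pool 2 and 0.082 with the mean of all probe sets of each gene. With threat higher, 8 had pools that did not overlap, and 2 with threat lower, against 26.2% and 18.8% of all genes. None passed limma's test at an adjusted p under 0.05. At an unadjusted p under 0.05 there was 1 higher and 1 lower, against 4.9% and 5.76% of all genes. Adcy8, an adenylyl cyclase stimulated by calcium, measured 7.14 and 7.09 in control and 7.48 and 7.61 in threat, a difference of 0.43 ± 0.097 (95% interval 0.19 to 0.68, limma adjusted p = 0.423). It lay between 0.37 and 0.50 when each pool was left out. Prkaca, a catalytic subunit of the kinase that cyclic AMP activates, measured 10.90 and 10.92 in control and 10.64 and 10.46 in threat, a difference of -0.36 ± 0.10 (limma adjusted p = 0.433). Gnaq, the G protein of the Htr2 receptors, differed by 0.24 ± 0.13 and the cyclase Adcy3 by 0.24 ± 0.097.

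Of 17 measured partners and regulators of the receptors, 12 lay above 0 and 5 below, where 55.7% of all genes lay above 0. Their median of 0.094 was 0.041 without control pool 1 and 0.023 with the mean of all probe sets of each gene. None passed limma's test at an adjusted p under 0.05. At an unadjusted p under 0.05 there were 0 higher and 1 lower, against 4.9% and 5.76% of all genes. The lower gene was Ric3, a chaperone of Htr3 and nicotinic receptors, at 6.16 and 6.09 in control and 5.83 and 5.91 in threat (-0.26 ± 0.094, limma adjusted p = 0.455). The membrane protein Cav1 differed by -0.38 ± 0.20, the transcriptional repressor Hes5 by -0.24 ± 0.15 and Adarb1, an enzyme that edits Htr2c RNA, by 0.23 ± 0.098. In 7 of the 17 both threat pools were above both control pools and in 2 below, against 26.2% and 18.8% of all genes.

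**Figure D4:**
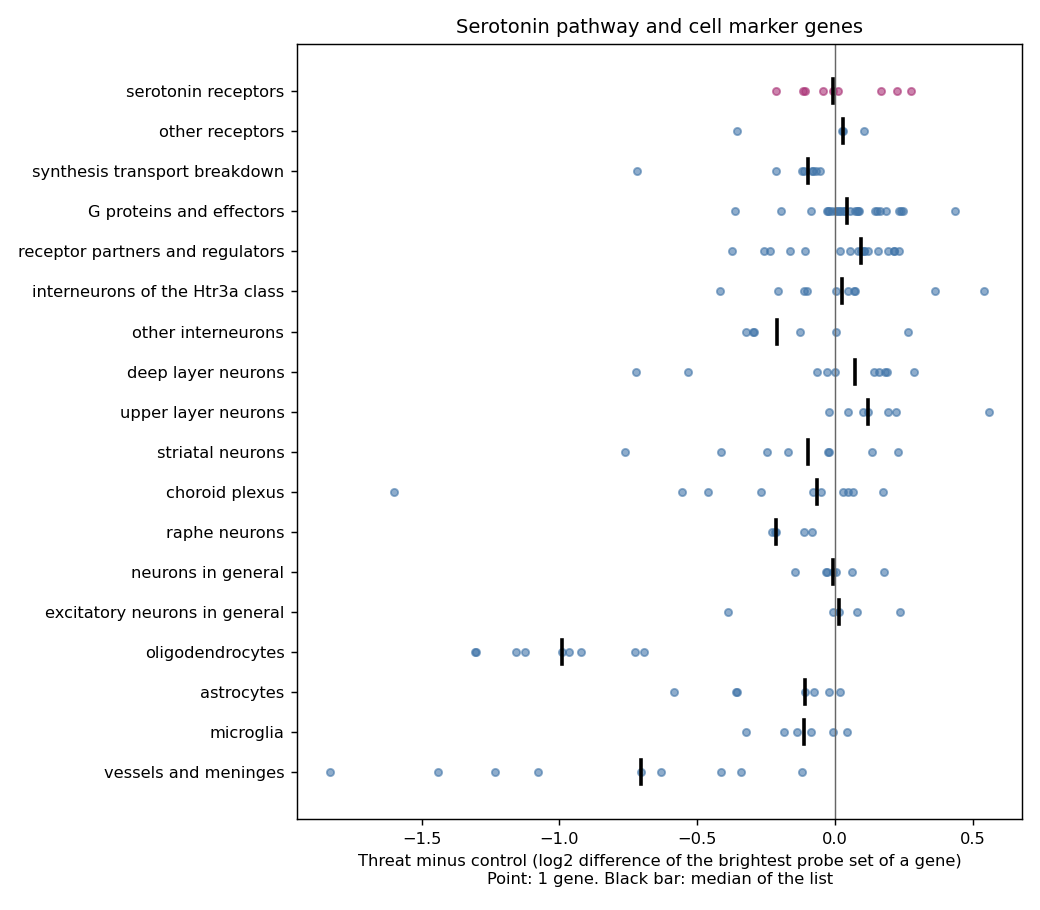
Log2 difference of threat minus control for the genes of each list (points, brightest probe set of a gene) with the list's median (black bars). The serotonin receptors lie between -0.21 and 0.27, while all 9 oligodendrocyte markers lie below 0 with a median of -0.99.

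Markers of the cells that a cortical dissection can hold gave the setting for these values. Over all genes, 55.7% had a difference above 0. Neurons in general had a median difference of -0.0088 over 7 genes and excitatory neurons of 0.014 over 5, with the transcription factor Neurod6 at -0.39, the glutamate transporter Slc17a7 at 0.23 and the calmodulin-binding protein Nrgn at 0.079. Markers of deep layers had a median of 0.070 over 10 genes, 5 above 0 and 5 below, with Ccn2 at -0.72, Tbr1 at -0.53 and Parm1 at 0.29, and markers of upper layers 0.12 over 7, with Otof at 0.56. Other interneurons had a median of -0.21 over 6 genes, 2 above 0 and 4 below. Tac1 differed by -0.32 and Chodl by -0.30, both with overlapping groups. Pvalb, parvalbumin, measured 9.27 and 8.63 in control and 8.87 and 8.43 in threat. Lhx6 differed by 0.26, with both threat pools above both control pools. Striatal neurons, which carry much Htr1b and Htr4, had a median of -0.099 over 8, with Pde10a at -0.76, Penk at -0.42, Gpr6 at -0.25 and Drd1 at 0.23. Markers of serotonin neurons, whose cell bodies lie in the brainstem, had a median of -0.22 over 5, of which 2 were not above the Bacillus controls. Slc6a4, at 4.62 to 4.88, and Slc18a2, at 4.21 to 4.45, lay near those controls. Gata2 measured 6.14 in both control pools and 5.91 in both threat pools. With Tph2 inside the Bacillus range, this median does not measure serotonin neurons in the tissue. Slc6a4, Slc18a2 and Tph2 of this list were also in that of synthesis and transport. Of the 13 marker lists, 8 had a median that turned its sign when 1 pool was left out. The range was -0.36 to 0.046 for other interneurons, -0.30 to 0.033 for striatal neurons, -0.23 to 0.29 for deep layers, -0.0005 to 0.27 for upper layers, -0.022 to 0.091 for the Htr3a class, -0.047 to 0.11 for excitatory neurons, -0.021 to 0.0009 for neurons in general and -0.23 to 0.011 for astrocytes.

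Oligodendrocyte markers had a median of -0.99, and vessel and meningeal markers of -0.70 over 9 genes. Astrocyte and microglia markers both had a median of -0.11, over 7 and 6 genes, with Gfap, the astrocyte filament, at -0.59 and the complement gene C1qa at -0.33. No gene of any of these lists passed limma's test at an adjusted p under 0.05. The mean log2 value of the oligodendrocyte markers was 10.57 and 10.10 in control and 9.20 and 9.42 in threat, while that of the 9 receptors by their brightest probe sets was 7.13 and 7.07 in control and 7.15 and 7.09 in threat. The part of a changed mixture of cells in the receptor values was not tested.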

How the data were processed

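The authors deposited a log2 value for each probe set on each array. RMA, which corrects background, gives arrays 1 distribution and summarises the probes of a set, is named in the submitters' processing notes, while its version, settings and chip definition are not stated there. The scale was checked on the values (2.51 to 14.37). Such scaling would hide a shift of most transcripts together. Detection calls were not used. The 64 control probe sets were left out of tests. Of the other 45037, the platform annotation gave 34945 exactly 1 symbol, 932 several and left 9160 unnamed here.

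Threat was compared with control by lmFit and eBayes of limma 3.58.1 (R 4.3.3), without a trend and 2-sided, with p-values adjusted by Benjamini-Hochberg over all 45037, and the script was checked on simulated data. The fit had 2 residual degrees of freedom for each probe set. The eBayes step draws the variance of a probe set toward that of all probe sets. SEs, intervals and p-values thus rest on both. They measure only spread between pools, not between mice, and the number of arrays limits the precision. Exact permutation of 4 pools gives no p under 0.333 and was not used. Genes of the lists were represented by their probe set with the highest mean. Every receptor probe set was named, and all genes of the lists of other receptors and of synthesis and transport. Of the other pathway lists, the 4 genes with the largest difference among those above the Bacillus controls were named. Of the marker lists, up to 3 such genes were named, in some lists fewer. None was named of the oligodendrocyte, vessel and general neuron lists. Drd1, Lhx6, Vip, Cck, Lamp5, Ndnf, Npy, Prox1 and the 4 choroid plexus markers not above the Bacillus controls were named outside this rule, after their values were seen. The receptors and lists were chosen with earlier results of these data known. Alternatives were the pool number as a block, median centring, cyclic loess, an intensity trend, bright probe sets alone, other background thresholds, gene means, a 1.3-fold rule and each pool left out.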

Additional observations from a re-analysis of the deposited data

How the results depend on the processing

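In limma's test, 0 receptor probe sets had an adjusted p under 0.05 under any of the alternatives run, and 0 reached 1.5-fold, or 1.3-fold with all pools, without overlap. The count with an unadjusted p under 0.05 was 0 with all pools, 1 after cyclic loess (1422288_at of Htr1b, adjusted p = 0.474, with 0.382 to 0.734 over the alternatives of this probe set), and 0 to 1 when each pool was left out. The pools share only a number across groups: with the pool number as a replicate block 0 receptors passed an adjusted or an unadjusted p of 0.05, and the correlation of same-numbered deviations, over 2 pairs that cannot settle a pairing, was 0.33. Above the Bacillus controls were 16 probe sets, 17 against the 95th percentile of the Bacillus values, and 14 when every array had to be. The count of probe sets with threat higher and no overlap was 2 with all pools, 3 to 8 without 1 pool (8 without control pool 1, 6 without threat pool 2), and 1 among bright probe sets as well as over gene means. That with threat lower was 4, 6 to 9 without 1 pool (9 without control pool 2, 7 without threat pool 1), 2 among bright probe sets and 1 over gene means. Fewer pools have to be apart where 1 is left out, and fewer values are counted in the bright and gene sets. These counts are thus not comparable with those of all pools. Their shares over all probe sets are not given, so the counts show nothing particular to the receptors. Of 108 receptor differences recomputed under alternatives that can move them, 88 kept their sign. Median centring turned 1443365_at of Htr4 to 0.027 and cyclic loess turned 1435513_at of Htr2c to -0.040. Leaving out each pool gave -0.25 to 0.023 for 1438710_at of Htr1a, -0.0049 to 0.46 for 1442077_at of Htr1b, -0.100 to 0.14 for 1440166_x_at of Htr1d, -0.11 to 0.44 for 1450548_at and -0.21 to 0.092 for 1440422_at of Htr1f, -0.13 to 0.15 for 1435513_at and -0.11 to 0.25 for 1450477_at of Htr2c, -0.029 to 0.011 for 1443365_at and -0.11 to 0.14 for 1427654_a_at of Htr4, and -0.24 to 0.013 for 1435332_at of Htr7. The cause of these changes was not tested.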
